A study of Mus musculus with 8 samples.

Results

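The SLC30 family, also called the ZnT proteins, was examined as 9 genes of the deposited table of 55536 genes: Slc30a1, Slc30a3, Slc30a4, Slc30a5, Slc30a6, Slc30a7, Slc30a8, Slc30a9 and Slc30a10. They were taken by symbol from a fixed list with no cut on measured values, although the list was chosen with earlier results of these data known. The RNA came from alphaTC6 cells, a mouse line of glucagon-secreting pancreatic alpha cells labelled as wild type. All 8 cultures had been reverse transfected for 48 h, 4 with siRNAs against the transcription factor Klf4 and 4 with a scramble siRNA that served as the control. Each treatment was present in both labelled batches. Scramble replicates 1 and 2 and Klf4 siRNA replicates 1, 2 and 4 were batch 1, and scramble replicates 3 and 4 and Klf4 siRNA replicate 3 were batch 2. The replicates were described as biological, without saying how they were separated or what the batches were, so p-values measure the spread between these libraries. As a model this was 1 cell line in culture under a transient knockdown by a pool of siRNAs. The extraction protocol in the labels speaks of isolated islets, although the samples carry the name of the line.

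ZnT proteins move zinc out of the cytosol, either across the plasma membrane or into organelles, and ZIP proteins of the SLC39 family move it the other way. In islets, ZnT8, the product of Slc30a8, is best known for filling the insulin granules of beta cells with zinc, and alpha cells also make it. ZnT5 and ZnT6 work as a pair in the early secretory pathway, where ZnT7 forms its own dimer. ZnT1 is the exporter of the plasma membrane, and its gene is a classical target of the zinc-sensing factor MTF1, as are the metallothionein genes.

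The promoters of 2 members that changed in opposite directions, Slc30a4 and Slc30a5, are shown with that of Slc30a1, the MTF1 target. The RefSeq promoter table (GRCm38.p6) matched 8 of the 9 members, all but Slc30a8. Each run holds the 250 bases before the annotated start on the gene's strand. In Slc30a4 (chr2:122702664-122702913, minus strand) and Slc30a5 (chr13:100833428-100833677, minus strand), capitals mark CACCC, the core of the box that KLF factors bind, searched on both strands. In Slc30a1 (chr1:191906531-191906780, plus strand), capitals mark TGCNCNC, also on both strands. This is a loose form of the core of the metal response element that MTF1 binds, so not every match is such a core.
Slc30a4: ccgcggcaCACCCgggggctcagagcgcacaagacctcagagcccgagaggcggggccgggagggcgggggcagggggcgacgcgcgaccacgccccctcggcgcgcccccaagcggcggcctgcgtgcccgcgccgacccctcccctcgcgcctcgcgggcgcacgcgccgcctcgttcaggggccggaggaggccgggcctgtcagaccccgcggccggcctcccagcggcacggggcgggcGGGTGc
Slc30a5: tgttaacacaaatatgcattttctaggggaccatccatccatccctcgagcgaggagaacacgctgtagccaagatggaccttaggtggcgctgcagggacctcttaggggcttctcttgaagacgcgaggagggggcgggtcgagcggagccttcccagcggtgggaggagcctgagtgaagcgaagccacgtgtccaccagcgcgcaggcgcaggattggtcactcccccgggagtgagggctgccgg
Slc30a1: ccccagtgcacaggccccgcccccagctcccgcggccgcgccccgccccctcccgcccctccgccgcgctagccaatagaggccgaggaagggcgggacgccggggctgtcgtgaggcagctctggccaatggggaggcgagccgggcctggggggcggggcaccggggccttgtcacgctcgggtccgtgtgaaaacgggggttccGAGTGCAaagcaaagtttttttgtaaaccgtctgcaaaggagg
The Slc30a4 window held 2 CACCC matches, 1 of them beginning 6 bases before the start, and the Slc30a5 window held 0. Members that were not called had like numbers, 2 each in Slc30a7 and Slc30a9, 1 in Slc30a6 and 0 in Slc30a1, and the untested Slc30a10 had 4. CACCC was found in 52.0% of all 32851 promoter windows of this length in the table. The Slc30a1 window held 1 TGCNCNC match, beginning 43 bases before the start, and 44.4% of all windows held at least 1. The Slc30a4 window also held 4 TGCNCNC matches and the Slc30a5 window 1, not capitalised here, and none of them overlapped a CACCC match. G and C made up 82.8% of the Slc30a4 bases, 62.0% of those of Slc30a5 and 71.2% of those of Slc30a1. These are letter matches, and binding was not measured.

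Libraries held 45954151 to 64185987 counts, and levels are given as CPM, counts per 1000000 counts of the library after TMM scaling between libraries. Klf4 itself was below every control in all 4 siRNA libraries, at 15.6 ± 4.26 CPM against 41.8 ± 5.66 CPM (SD, n = 4 each), or 39.8% of the control level in the fit with batch (edgeR adjusted p = 0.0083). Of the alpha cell markers, 8 of 8 had enough counts to be tested. Their summed level ran from 3440 to 11255 CPM in scramble and from 3179 to 9931 CPM in Klf4 siRNA libraries. By batch it stood apart, at 3179 to 3455 CPM in batch 1 and 9931 to 11255 CPM in batch 2, where most of it was Gcg. After Klf4 siRNA, Gcg and Slc7a2 were among those called lower, with log2 fold changes of -0.18 and -0.13 (edgeR adjusted p = 0.0095 and 0.0080), and the part of these markers in the results on zinc exporters was not tested. Of 8 beta cell markers, Ins1, Ins2, Ucn3 and Pdx1 had 0 counts in every library. The beta list, most of it Nkx6-1, summed to 121.3 to 152.2 CPM in scramble and 107.1 to 139.1 CPM in Klf4 siRNA libraries, and Nkx6-1 was called lower after Klf4 siRNA (log2 fold change -0.12, edgeR adjusted p = 0.044). The 2 delta markers summed to at most 0.0569 CPM, and the PP marker Ppy to at most 0.183 CPM. The 3 acinar, 2 duct and 2 fibroblast markers summed to at most 7.31, 4.63 and 21.8 CPM.

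Slc30a8 was by far the most abundant member. Since genes of different length yield different numbers of reads, levels of different genes were compared as CPM per kilobase of annotated exons. On that scale Slc30a8 had 199.4 ± 14.6 (SD over the 8 libraries) and the next member, Slc30a4, a transporter of endosomes and secretory vesicles, had 24.7 ± 3.56. Slc30a8 thus stood 8.09-fold above the next member. By this length it ranked 131 among the 16333 genes with enough counts to test, and its rank by other lengths is not given. Slc30a9, which encodes a transporter of the mitochondrial membrane, had 12.6 ± 0.553 CPM per kilobase and Slc30a5 had 12.0 ± 0.689. The ranges of these neighbours overlapped, from 12.0 to 13.6 for Slc30a9 and from 10.99 to 12.9 for Slc30a5, and Slc30a9 was the higher in 7 of 8 libraries. The ranges also overlapped for Slc30a1 (6.22 ± 0.897) and Slc30a6 (5.57 ± 0.253), with Slc30a1 higher in 6 of 8 libraries, while Slc30a7 was lowest of the expressed members at 3.42 ± 0.257 CPM per kilobase.

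The order of the means below Slc30a8 depended on the length used. With the longest annotated transcript in place of all exons, Slc30a9 had 27.3 ± 1.20 CPM per kilobase, Slc30a4 24.8 ± 3.57 and Slc30a5 21.9 ± 1.26, and Slc30a8 stood 7.30-fold above Slc30a9. Slc30a6 then had 7.97 ± 0.362 and Slc30a1 6.22 ± 0.897. Within libraries, Slc30a6 then exceeded Slc30a1 in 8 of 8, although their ranges overlapped across batches, and Slc30a9 exceeded Slc30a4 in 6 of 8, an order that was not resolved. Of the summed level of the 9 members per kilobase of exons, Slc30a8 made up 75.3% and 75.0% in scramble replicates 1 and 2, and 74.4% and 73.9% in replicates 3 and 4. After Klf4 siRNA its share was 76.1%, 76.2%, 76.1% and 77.4% in replicates 1 to 4. The share was higher in each Klf4 siRNA library than in every control, a description of a sum over the members that was not tested. Without division by length the mean share was 45.7%, and with the longest transcript 68.3%.

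**Figure D1:**
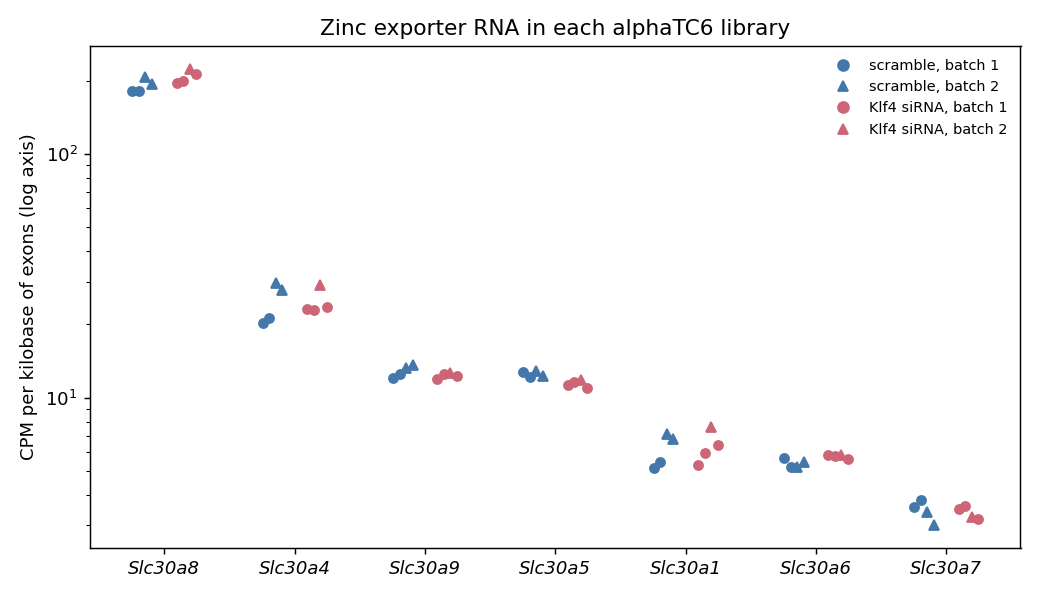
Levels of the 7 expressed zinc exporters in each library, as CPM per kilobase of exons on a log axis, with a point for each library, colour for the treatment and shape for the batch. Slc30a8 lies between 181.6 and 223.7 in all 8 libraries, above every value of the other members, and the batch 2 points of Slc30a4 and Slc30a1 lie above those of batch 1.

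Slc30a3 and Slc30a10 had between 0 and 4 counts in every library. Slc30a3 encodes the transporter that fills synaptic vesicles of neurons with zinc, and Slc30a10 encodes an exporter whose main cargo is manganese. Slc30a3 had 4, 1, 0 and 1 counts in scramble replicates 1 to 4, against 3, 0, 1 and 0 after Klf4 siRNA. Slc30a10 had 1, 0, 0 and 1 counts and 1, 2, 0 and 1 counts in the same order. A count of 0 allows a level of up to 0.0468 to 0.0637 CPM (3 counts), depending on the library, by counting error alone. Neither gene was tested, and no difference was detectable at this depth. Slc30a2, a family gene outside the 9, had at most 3 counts in a library.

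Whether the exporters changed with Klf4 was asked in the fit of treatment with batch as a term (edgeR quasi-likelihood, Benjamini-Hochberg adjusted over 16333 genes). Slc30a8 and Slc30a4 rose, to 111.4% and 107.9% of the control level, Slc30a5 fell to 91.6%, and Slc30a1, Slc30a6, Slc30a7 and Slc30a9 did not pass the threshold. Of the 7 members tested, 3 were called (2 higher, 1 lower), against 11.7% of all genes tested in either direction, 4.88% higher and 6.81% lower. The median log2 fold change of the 7 was 0.093, and that of all genes tested was 4.3e-05. The CPM of the treatments did not overlap for 1 of the 7, Slc30a5, against 10.5% of all genes tested. In bulk RNA, fewer cells that express a gene and less RNA per cell cannot be told apart. Annotated genes on the opposite strand overlap 5 of the 9 members, Slc30a1, Slc30a3, Slc30a4, Slc30a7 and Slc30a10, and whether counting used the strand is not given in the sources used here.

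Slc30a8 (ENSMUSG00000022315, chromosome 15, 52295553 to 52335798 of GRCm38, plus strand) had 357.9, 358.6, 407.7 and 383.0 CPM in scramble replicates 1 to 4. After Klf4 siRNA it had 383.9, 393.6, 440.8 and 418.7 CPM in replicates 1 to 4. The treatments overlapped over all 8 libraries, but within each batch every Klf4 siRNA library lay above every control. On the log2 scale the change was 0.16 ± 0.032 (SE; adjusted p = 0.0024 by edgeR), 111.4% of the control level, with a 95% interval from 0.089 to 0.222. The difference of log2 means was 0.15 within batch 1 and 0.16 within batch 2. Leaving out any 1 library kept the adjusted p between 0.0022 and 0.028. Without the batch term the log2 fold change was 0.12 and the adjusted p 0.366.

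Slc30a4 (ENSMUSG00000005802, chromosome 2, 122681233 to 122702663, minus strand) had 110.9, 116.9, 162.0 and 151.2 CPM in scramble replicates 1 to 4, against 126.7, 125.5, 158.9 and 129.4 CPM after Klf4 siRNA in the same order. The 3 Klf4 siRNA libraries of batch 1 exceeded both controls of that batch, whereas the Klf4 siRNA library of batch 2 lay between its controls. On the log2 scale the change was 0.11 ± 0.034 (SE; adjusted p = 0.041 by edgeR), and the difference of log2 means was 0.16 within batch 1 and 0.022 within batch 2. This call was the least stable of the 3. It was lost without scramble replicate 1 (adjusted p = 0.305 at 0.074), scramble replicate 2 (0.130), scramble replicate 4 (0.068), Klf4 siRNA replicate 1 (0.093), Klf4 siRNA replicate 2 (0.070) or Klf4 siRNA replicate 4 (0.061). With library size alone as the scaling the adjusted p was 0.101, and without the batch term the log2 fold change was -0.0022.

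Slc30a5 (ENSMUSG00000021629, chromosome 13, 100802648 to 100833427, minus strand) encodes ZnT5, the large partner of ZnT6 in the early secretory pathway. It had 93.5, 89.1, 94.2 and 89.6 CPM in scramble replicates 1 to 4. After Klf4 siRNA it had 82.2, 85.0, 86.3 and 80.2 CPM in replicates 1 to 4, all below the lowest control. On the log2 scale the change was -0.13 ± 0.032 (SE; adjusted p = 0.013 by edgeR), 91.6% of the control level, and the difference was -0.15 within batch 1 and -0.089 within batch 2. Without scramble replicate 1 the log2 fold change was -0.10 and the call was lost (adjusted p = 0.138). Without the batch term the log2 fold change was -0.13 with an adjusted p of 0.090.

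Slc30a6 (ENSMUSG00000024069, chromosome 17), the gene of the partner ZnT6, did not pass. It had 17.4, 16.1, 16.0 and 16.8 CPM in scramble replicates 1 to 4, against 17.9, 17.7, 17.9 and 17.2 CPM after Klf4 siRNA in the same order, with overlap between the treatments. Its log2 fold change was 0.093, with a 95% interval from -0.010 to 0.196 (edgeR adjusted p = 0.266). Slc30a7 (ENSMUSG00000054414, chromosome 3), the gene of the Golgi transporter ZnT7, had 39.8, 42.2, 38.0 and 33.5 CPM in scramble replicates 1 to 4, against 38.9, 40.0, 36.1 and 35.3 CPM after Klf4 siRNA in the same order. The interval of its log2 fold change ran from -0.171 to 0.041 around -0.065 (edgeR adjusted p = 0.487), and it was the 1 tested member whose differences within the batches had opposite signs (-0.11 and 0.016).

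Slc30a9 (ENSMUSG00000029221, chromosome 5) had 149.8, 154.8, 163.3 and 168.7 CPM in scramble replicates 1 to 4, against 148.4, 154.6, 155.9 and 152.1 CPM after Klf4 siRNA in the same order. Its log2 fold change was -0.036, with a 95% interval from -0.096 to 0.024 (edgeR adjusted p = 0.507). Slc30a1 (ENSMUSG00000037434, chromosome 1) had 27.1, 28.5, 37.1 and 35.7 CPM in scramble replicates 1 to 4, against 27.9, 31.1, 39.8 and 33.7 CPM after Klf4 siRNA in the same order. On the log2 scale its value was 0.14 ± 0.049 (SE), which missed the threshold (adjusted p = 0.071 by edgeR). It passed without Klf4 siRNA replicate 1 (adjusted p = 0.014 at 0.18) and with no filter on low counts (0.018).

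**Figure D2:**
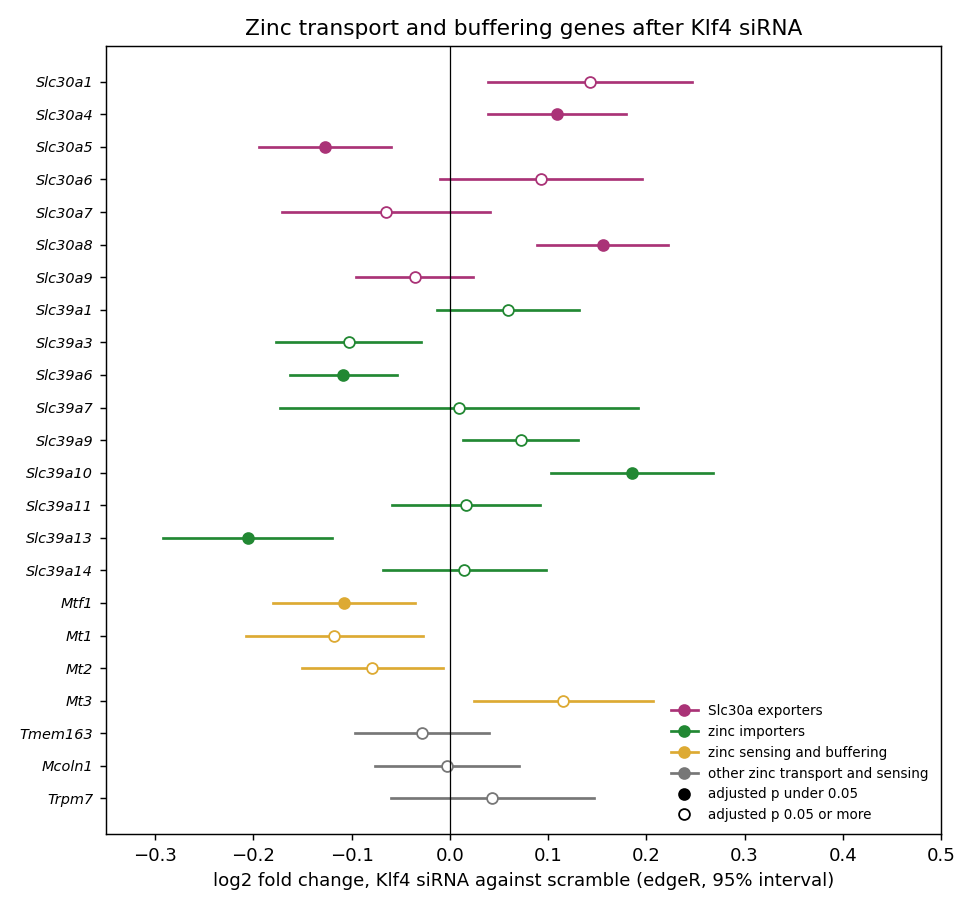
Log2 fold change after Klf4 siRNA (edgeR, batch as a term) of zinc transport and buffering genes, with 95% intervals, colour for the gene group and filled points for an adjusted p under 0.05. Among the exporters Slc30a8 (0.16) and Slc30a4 (0.11) lie above 0 and Slc30a5 (-0.13) below, and the importers likewise hold filled points on both sides.

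Slc30a8 was then set against its paralogs within each library, as the log2 ratio of its counts to those of each of the 6 other tested members, a measure that needs no scaling between libraries. The change in ratio was tested by a two-sided exact permutation of treatment labels within batches, which has 30 arrangements and a smallest p of 0.033. Relative to Slc30a5 the ratio was higher by 0.28 on the log2 scale in the linear fit with batch, from 1.94 and 2.01 to between 2.21 and 2.38 in batch 1, and from 2.10 and 2.11 to 2.35 in batch 2. Relative to Slc30a7 the change was 0.22 and relative to Slc30a9 it was 0.19. In these 3 ratios every Klf4 siRNA library exceeded every control of its batch, 3 of 3 in batch 1 and 1 of 1 in batch 2. The 3 ratios share Slc30a8, whose own CPM separated in the same way within each batch, so they are not independent. Slc30a7 and Slc30a9 were not called themselves. How many other genes would give such a ratio to Slc30a8 was not counted. Each of the 3 ratios had the smallest p the test allows (exact permutation p = 0.033). This was 0.067 after Benjamini-Hochberg adjustment over the 6 ratios, so none passed 0.05.

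The ratio of Slc30a8 to Slc30a1, Slc30a4 and Slc30a6 differed by 0.015, 0.045 and 0.061 (exact permutation adjusted p = 0.800, 0.480 and 0.480). The Slc30a4 ratio overlapped in batch 1, at 1.62 and 1.69 in the controls and 1.60 to 1.69 after Klf4 siRNA. In batch 2 the Klf4 siRNA library (1.47) lay above both controls (1.33 and 1.34). Against Slc30a1 the treatments likewise overlapped in batch 1 and not in batch 2, where the controls gave 3.42 and 3.46 and the Klf4 siRNA library 3.47. A p that misses the threshold does not show that Slc30a8 and these paralogs changed alike.

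**Figure D3:**
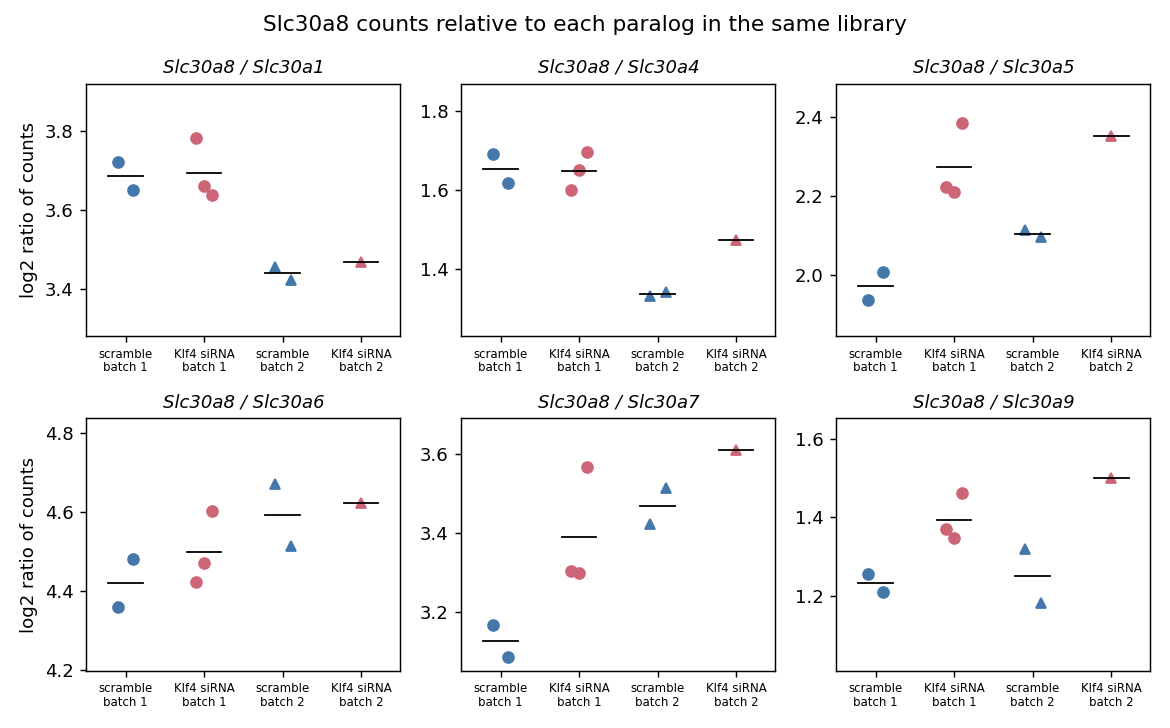
Log2 ratio of Slc30a8 counts to those of each tested paralog in the same library, by treatment and batch, with a point for each library and a black line at the mean. The Klf4 siRNA points lie above the controls of their batch in the panels of Slc30a5, Slc30a7 and Slc30a9, and between batches the ratio differs by -0.24 for Slc30a1, -0.26 for Slc30a4, 0.29 for Slc30a7 and 0.15 for Slc30a6, in each case by more than between treatments.

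The batches were compared in the same fit. Slc30a4, Slc30a1, Slc30a8 and Slc30a9 were higher in batch 2 and Slc30a7 was lower. Of the 7 tested members, 5 were called between batch 2 and batch 1 (4 higher, 1 lower), against 32.7% of all genes tested, 16.8% higher and 15.9% lower. The summed level of the alpha cell markers moved with the same split, as given above. The beta markers, mostly Nkx6-1, summed to 107.1 to 122.7 CPM in batch 1 and 139.1 to 152.2 CPM in batch 2. The duct sum was 1.07 to 1.57 CPM in batch 1 and 3.74 to 4.63 CPM in batch 2, nearly all of it Sox9. The other duct marker, Krt19, had a mean of 0.0158 CPM in batch 1 and 0 CPM in batch 2. The part of these markers in the batch differences was not tested. The CPM of the batches did not overlap for Slc30a1, Slc30a4 and Slc30a9, 3 of 7, against 29.4% of all genes tested. Slc30a4 had 121.9 ± 7.69 CPM (SD, n = 5) in batch 1 and 157.4 ± 5.56 CPM (SD, n = 3) in batch 2, a 1.32-fold difference (0.40 ± 0.034 SE on the log2 scale, adjusted p = 1.4e-08 by edgeR). Slc30a1 had 29.6 ± 2.70 CPM in batch 1 and 37.6 ± 2.08 CPM in batch 2, or 1.30-fold (0.38 ± 0.050 SE on the log2 scale, adjusted p = 8.7e-06 by edgeR).

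Slc30a8 had 382.6 ± 25.6 CPM (SD, n = 5) in batch 1 and 410.5 ± 29.0 CPM (SD, n = 3) in batch 2, and these overlapped (1.10-fold, edgeR adjusted p = 0.0018). Slc30a9 was 1.06-fold higher (adjusted p = 0.026) and Slc30a7 was lower, at 0.904 of its batch 1 level (adjusted p = 0.041). Both of these calls were lost when some single libraries were left out, with an adjusted p of up to 0.160 for Slc30a9 without scramble replicate 1 and 0.150 for Slc30a7 without scramble replicate 2. Slc30a5 and Slc30a6 did not pass, with log2 differences of 0.033 (95% interval -0.036 to 0.103) and -0.0094 (-0.115 to 0.097).

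**Figure D4:**
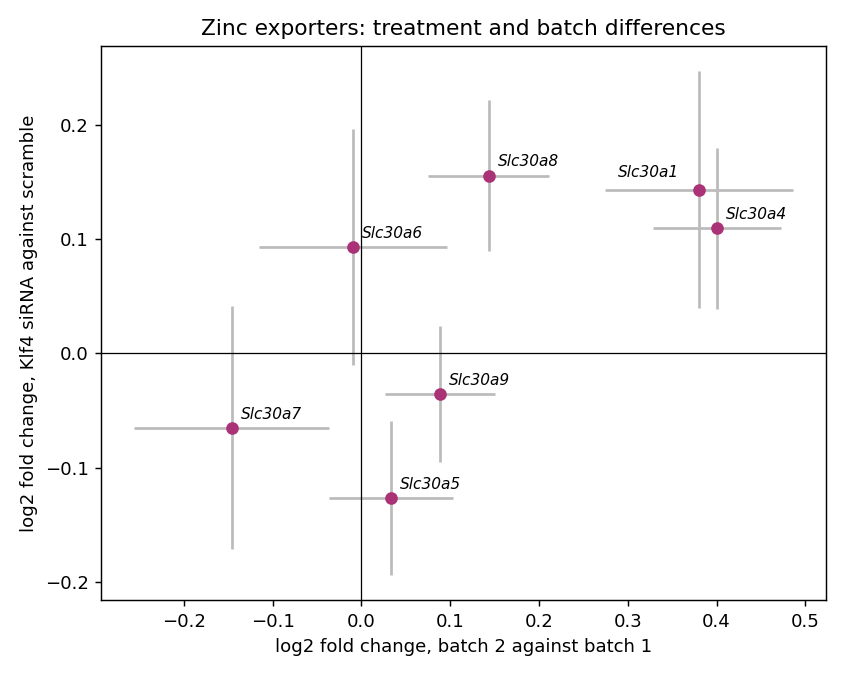
Log2 fold change after Klf4 siRNA (vertical) against the log2 fold change of batch 2 over batch 1 (horizontal) for the 7 tested zinc exporters, with 95% intervals in both directions. Slc30a4 (0.40) and Slc30a1 (0.38) lie far to the right, whereas Slc30a5 lies near 0 on the batch axis and at -0.13 on the treatment axis.

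The response to Klf4 siRNA was not shown to differ between batches for any member. The interaction of batch and treatment was called for 0 of 16333 genes (0%; 540 at an unadjusted p under 0.05, and 0 also by DESeq2 and limma-voom). For Slc30a4 the interaction was -0.14 on the log2 scale with an unadjusted p of 0.0496 and an adjusted p of 0.999. For Slc30a8 it was 0.0025, with a standard error of 0.069. Batch 2 held a single Klf4 siRNA library, which limits this test.

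The opposing zinc importers of the SLC39 family also split. Of the 14 genes listed, 9 were tested and 3 were called, 1 higher and 2 lower after Klf4 siRNA, against 11.7% of all genes tested (4.88% higher, 6.81% lower). Their median log2 fold change was 0.015. Slc39a10, an importer of the plasma membrane, had 39.1, 40.5, 43.4 and 39.3 CPM in scramble replicates 1 to 4, against 46.6, 45.9, 47.6 and 42.5 CPM after Klf4 siRNA in the same order. Within each batch the Klf4 siRNA libraries lay above the controls, although the treatments overlapped over all 8. On the log2 scale the change was 0.19 ± 0.040 (SE; adjusted p = 0.0034 by edgeR). Slc39a6, the close relative that pairs with Slc39a10, instead fell from 178.3 ± 3.75 to 164.3 ± 3.17 CPM (SD, n = 4 each; log2 fold change -0.11, edgeR adjusted p = 0.0086), and its treatments did not overlap. Slc39a6 lost its call without scramble replicate 2 (adjusted p = 0.068) or Klf4 siRNA replicate 3 (0.081). Slc39a13, a transporter of the early secretory pathway, fell from 30.1 ± 3.73 to 24.7 ± 2.96 CPM (SD, n = 4 each; -0.21 ± 0.041 SE on the log2 scale, adjusted p = 0.0021 by edgeR). It lay below the controls within each batch. Without the batch term all 3 importer calls were lost, those of Slc39a13 (adjusted p = 0.239), Slc39a10 (0.118) and Slc39a6 (0.067), and that of Slc39a6 also in batch 1 alone (0.074).

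Of the 5 genes for zinc sensing and buffering, 4 were tested and 1 was called, lower, against 6.81% of all genes tested. Mtf1, which encodes the zinc sensor itself, had 47.0, 43.4, 43.3 and 44.1 CPM in scramble replicates 1 to 4, against 42.1, 41.6, 41.1 and 41.5 CPM after Klf4 siRNA in the same order. On the log2 scale the change was -0.11 ± 0.034 (SE; adjusted p = 0.047 by edgeR). Its treatments did not overlap, but the call was lost in 15 of 16 other settings, the omission of any 1 of the 8 libraries among them, with an adjusted p of 0.053 to 0.340 over those omissions. The metallothioneins are named although they did not pass, a choice made with their values known. Mt1 and Mt2, zinc-binding proteins whose genes are classical MTF1 targets, had log2 fold changes of -0.12 and -0.079 that did not pass (edgeR adjusted p = 0.094 and 0.160), while that of Slc30a1 was positive. Mt3 had 0.12 (edgeR adjusted p = 0.099), and Mt4 had 0 counts in all libraries. Of the 5 other listed genes for zinc transport and sensing, 4 were tested and none passed, with log2 fold changes between -0.028 and 0.043. Gpr39, a zinc-sensing receptor with few counts and an interval from -0.62 to 0.66, is left out of the plot of zinc genes.

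The genes most like Slc30a8 over the 8 libraries were named by Pearson's r of log2 CPM among 9346 other genes with a mean of at least 10 CPM. They were Emc1 (r = 0.987), Phkb (0.979), Zfp365 (0.972), Zcchc9 (0.968) and Camk4 (0.967). The 8 points differ in treatment and batch, which every gene shares, and these values carry no test. Emc1, Zfp365 and Camk4 were themselves called higher after Klf4 siRNA, at log2 fold changes of 0.092, 0.11 and 0.12 (edgeR adjusted p = 0.034, 0.037 and 0.014). Phkb and Zcchc9 were not called, and 4.88% of all genes tested were called higher. The genes were picked for likeness to Slc30a8, itself called higher in the same libraries, so their calls are not a separate result. Among the members, Slc30a1 was most like Slc30a8 (r = 0.827), followed by Slc30a4 (0.725), whereas Slc30a7 had -0.570 and Slc30a5 -0.391. With each batch centred on its mean, Slc30a1 had 0.892 and Slc30a4 0.811, Slc30a5 was the most opposed at -0.768, Slc30a7 had -0.383, and Slc30a9 turned from 0.166 to -0.478.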

How the data were processed

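Poly(A) RNA of 8 alphaTC6 libraries was sequenced. The deposited table holds whole-number counts per gene, not normalized. Per the submitters' processing notes, FastQC, STAR, featureCounts and DESeq2 were used with the mm10 build, and versions and settings are not given in the sources used here. Per the labels' design text, the authors used edgeR with batch correction. Groups and batches came from the labels.

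Here counts were filtered with filterByExpr by treatment (16333 of 55536 genes tested), scaled by TMM and fitted with edgeR 4.0.16 (R 4.3.3), by the robust quasi-likelihood test with batch and treatment as terms and 5 residual degrees of freedom. P-values were adjusted by Benjamini-Hochberg with a threshold of 0.05. Totals of 45954151 to 64185987 counts set the precision. CPM used the TMM-scaled library sizes. Exon lengths came from GENCODE M21 (GRCm38), and all gene IDs matched. Within-batch differences used a prior count of 2, and ratios of Slc30a8 to a paralog a prior of 0.5 counts. Floors cover counting error only. The main fit was also run on simulated counts with known changes, and the outcome is not given here. Alternatives were no batch term, a replicate block, batch 1 alone, DESeq2 1.42.0 size factors and Wald test, library size alone, limma 3.58.1 voom, no filter, and each library left out.

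All 9 members are named, with up to 4 called genes of each list by smallest adjusted p, and the 5 genes most correlated with Slc30a8. The members and lists were chosen with earlier results of these data known. Some single alpha cell markers are not reported here.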

Additional observations from a re-analysis of the deposited data

Results flagged for a closer look

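Among 14 groups of 4 libraries (7 tested members in each treatment), 1 had a library far from the others by Dixon's criterion, and chance marks about 1 in 20 such groups. Slc30a4 in Klf4 siRNA replicate 3 had 158.9 CPM, and the nearest of the other Klf4 siRNA libraries had 129.4 CPM, a gap of 0.885 of the group's range, above the 95% critical value for 4 libraries. That library is the single Klf4 siRNA library of batch 2. The scramble libraries of batch 2 had 162.0 and 151.2 CPM of Slc30a4, and those of batch 1 had 110.9 and 116.9 CPM.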

How the results depend on the processing

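Klf4 siRNA changed 1909 genes in the fit with batch, 409 without the batch term, 1232 in batch 1 alone, and 934 to 2021 with 1 library left out (934 without scramble replicate 1, 1012 without scramble replicate 2, 1232 without Klf4 siRNA replicate 3). Of the members, 3 were called, 0 without the batch term and 1 to 3 with 1 library left out (1 without scramble replicate 1). With the replicate number as a block in place of batch, 1220 genes were called, 1118 of them among the 1909. Same-numbered libraries correlated at 0.492, 0.416, 0.720 and -0.340 in their deviations from the group means, and at -0.00053, -0.040, -0.302 and 0.116 after removing batch, so the numbers were not taken to pair the libraries. In that block the Slc30a4 value was 0.0091 on the log2 scale (adjusted p = 0.959 by edgeR) and Slc39a13 lost its call (adjusted p = 0.108). Without the batch term Slc30a4 reversed to -0.0022, Slc30a5 had an adjusted p of 0.090 and Slc30a8 one of 0.366. Between batches, 5 members were called, and 3 to 5 with 1 library left out (3 without scramble replicate 1, 2 or 4). The Slc30a5 batch difference was -0.0041 with library size alone, and that of Slc30a6 ran from -0.033 to 0.023 with 1 library left out, above 0 without scramble replicate 1 or 3. Slc30a9 lost its batch call with library size alone (adjusted p = 0.247) and with no filter (0.059). The interaction called 0 genes, 17 with no filter and 0 to 13 with 1 library left out (13 without scramble replicate 3). It could not be fitted without Klf4 siRNA replicate 3. The Slc30a8 interaction was -0.0083 with no filter and -0.048 to 0.046 with 1 library left out. The change in the Slc30a8 to Slc30a4 ratio was -0.0056 in batch 1 alone and -0.0056 to 0.080 with 1 library left out, and that to Slc30a1 was -0.011 to 0.036. With 1 library left out or batch 1 alone, the ratio test could not go under 0.05 (smallest p 0.05 to 0.1), so these settings say nothing of its stability. The Slc30a8 share of the summed level, 75.6% over 8 libraries, was 45.7% with no division by length and 68.3% with the longest transcript. The cause of these shifts was not tested. Batch 2 held 3 libraries, which limits the within-batch values.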

Other observations

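Between batches, 3 of the 9 tested zinc importers and 2 of the 4 tested genes for zinc sensing and buffering were called, against 32.7% of all genes tested, so the share of importers was near the background. Mt3, a metallothionein best known from brain, was 1.53-fold higher in batch 2 (edgeR adjusted p = 1.4e-09), at 51.4 ± 2.27 CPM (SD, n = 3) against 34.4 ± 2.60 CPM (SD, n = 5). Mt1 was 1.11-fold higher (edgeR adjusted p = 0.012). Of the importers, Slc39a13 (1.24-fold, edgeR adjusted p = 7.6e-06) and Slc39a11 (1.15-fold, 0.00026) were higher in batch 2 and Slc39a1 was lower (0.902 of its batch 1 level, 0.0028).

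Secretory enzymes that take up zinc in the Golgi were barely detected. Of Alpl, Nt5e, Enpp1, Enpp3 and Car9, 0 of 5 had enough counts to be tested, and the 5 together summed to between 0.0716 and 0.276 CPM in a library.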
